A study of Rattus norvegicus with 39 samples.

Results

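Transfer RNA for selenocysteine (SeC) was represented in the genomic tRNA count table by a single gene, trna1937-SeC(e)TCA of chromosome 1, the only row of 402 whose name places SeC directly after the gene number. The table names the Rnor_6.0 assembly and gives the chromosome but no start or end, and the counts of this row were shared by no other row. It was followed in small RNA libraries from cauda epididymal sperm of wild-type adult male Fischer rats (11 to 12 weeks old), each library holding the total RNA of 1 male. All males were gavaged daily for 5 days, with water alone (EGME0, the control, n = 10) or with EGME, the solvent ethylene glycol monomethyl ether, a known testicular toxicant, in water at 50, 60 or 75 mg/kg/d (EGME50, n = 10; EGME60, n = 9; EGME75, n = 10). Sperm were taken 5 weeks after the last dose. The 39 libraries were run on 13 sequencing chips of 3 libraries each, and every comparison with control used the same 10 control males.

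Selenocysteine tRNA reads UGA, normally a stop codon, as the amino acid selenocysteine. It is first charged with serine by seryl-tRNA synthetase, the enzyme that also serves the serine tRNAs, and the serine is then converted to selenocysteine while on the tRNA. Like serine and leucine tRNAs it has a long variable arm, and in mammals it is usually encoded by a single functional gene. Selenoproteins made with it include GPX4, a peroxidase that becomes a structural protein of the sperm midpiece, and mature sperm are known to carry abundant tRNA fragments. The tables do not say which part of the tRNA the reads covered.

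Summed over the 4 deposited tables, the libraries held 244869 to 24308152 counts, and the tRNA table alone held 134381 to 12140012. Libraries under 1000000 summed counts were EGME0 replicate 33 and EGME75 replicate 24. Germ cell miRNAs (6 listed, all 6 in the table, 5 detected in control libraries) made up 19.8% to 33.1% of miRNA counts at EGME0, 11.1% to 25.5% at EGME50, 10.9% to 28.1% at EGME60 and 6.47% to 22.1% at EGME75. These percentages rest on 139 to 38208 miRNA counts per library, with 3 libraries under 1000. Blood cell miRNAs (6 of 7 listed in the table; miR-486-5p was not among its rows) ranged from 0% to 0.343% at EGME0, 0.119% to 1.24% at EGME50, 0.0216% to 2.17% at EGME60 and 0.248% to 4.82% at EGME75. Epithelial and muscle miRNAs (9 of 9 listed) ranged from 1.63% to 3.92%, 1.56% to 7.91%, 1.56% to 13.1% and 3.59% to 13.2% in the same order. How far these shifts entered the SeC values was not tested. In RNA from whole sperm samples, fewer cells of a type and less RNA per cell cannot be told apart.

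The SeC gene was among the most abundant single tRNA rows in control sperm. At EGME0 it held 2.97% ± 1.05% of tRNA counts (SD, n = 10), from 1.78% in replicate 10 to 4.63% in replicate 25, with a median of 2.71%. Over all 39 libraries its mean share of 2.93% ranked 9 among 49 anticodons, next below GlyCCC (2.97%, summed over 5 genes) and next above AsnGTT (2.26%, 14 genes). The anticodons above it in that order were sums over 5 to 15 gene rows. SeC was 1 of only 4 anticodons carried by a single row. Among single rows it ranked 7 by mean share over the 39 libraries. It was the largest row of all in 9 of them, of which EGME0 replicates 25 and 26 were the controls. Its rank among rows ran from 1 to 15 at EGME0 and from 1 to 28 over all libraries.

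Its standing depended on how copies were counted. Of the 402 rows, 220 shared their counts exactly with at least 1 other row, so that a read fitting several copies may stand in the total several times. With each distinct count pattern counted once, 238 patterns were left and SeC held 6.33% ± 2.41% of tRNA counts at EGME0. On that count it ranked 5 by mean share, and between 1 and 7 in every library.

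**Figure D1:**
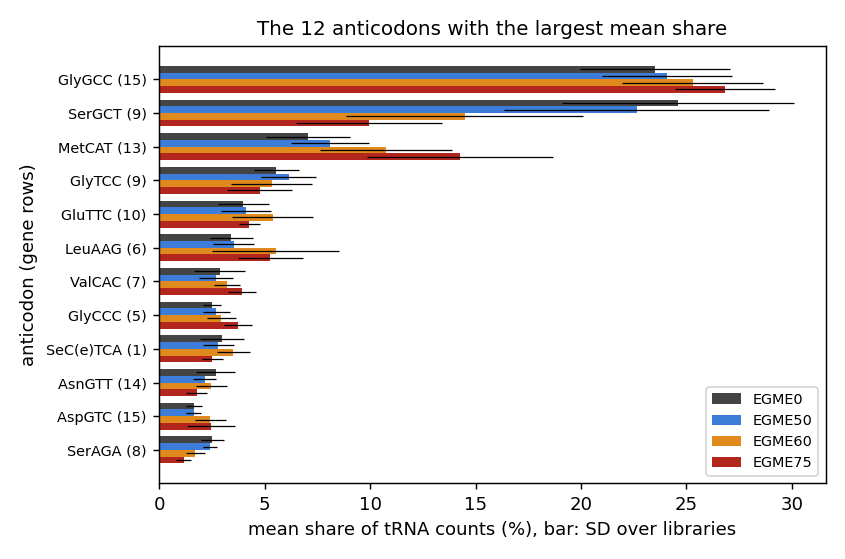
Mean share of tRNA counts in percent (horizontal axis) for the 12 anticodons with the largest mean share, with the number of gene rows summed for each in parentheses; bars are group means and lines are SDs over 9 or 10 libraries. SeC(e)TCA, a single row, had means between 2.52% and 3.52% in the 4 groups, while SerGCT fell with dose.

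The precision of a single library's share was high. Even the smallest library, EGME75 replicate 24, with 3693 SeC counts, had a share of 2.75% with an exact 95% binomial interval of 2.66% to 2.84%. In EGME60 replicate 38, with 502562 SeC counts, the share of 4.48% had an interval of 4.47% to 4.49%. These intervals cover counting error only, since reads without molecular identifiers are not independent molecules. The spread between males was much wider than counting error in every group.

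The first comparison asked whether EGME changed the share of tRNA counts held by SeC. EGME50 libraries ranged from 1.55% to 4.40% with a median of 2.71%, and had a mean of 2.79% ± 0.727% (SD, n = 10). At EGME60 the range was 2.43% to 4.48%, the median 3.85% and the mean 3.52% ± 0.801% (n = 9). EGME75 libraries lay between 1.51% and 3.14%, with a median of 2.66% and a mean of 2.52% ± 0.489% (n = 10). All groups overlapped, and the highest EGME75 library stood below 3 of the 10 controls.

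No dose differed from control in share beyond the spread between males. The difference was -0.173 points at EGME50 (95% interval -1.02 to 0.676, permutation p = 0.673, adjusted p = 0.673) and -0.449 points at EGME75 (interval -1.22 to 0.322, permutation p = 0.244, adjusted p = 0.306). It was 0.549 points at EGME60 (interval -0.364 to 1.46, exact permutation p = 0.217, adjusted p = 0.306), where 7 of 9 males were above the control median. The EGME75 result depended on the denominator: as a share of the 4 summed tables SeC was lower by 0.420 points (adjusted permutation p = 0.0374), and as a share of tRNA counts without GlyGCC and SerGCT, the largest anticodons, by 1.65 points (adjusted permutation p = 0.0150). SerGCT itself held 24.6% of tRNA counts at EGME0 and 9.93% at EGME75. It was part of the main denominator and of the 4 summed tables as well. How far its fall entered any of these differences was not tested. The order of the means was not the order of dose: EGME60 was highest, then EGME0, EGME50 and EGME75. Neighbours in that order did not differ beyond their spread, except that EGME50 and EGME75 were not tested against each other.

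Between the 2 higher doses the share did fall, by 0.998 points from EGME60 to EGME75 (interval -1.63 to -0.363, exact permutation p = 0.00509, adjusted p = 0.0254 over the 5 comparisons of shares). All 10 EGME75 males were below the EGME60 median, although the ranges overlapped. From EGME50 to EGME60 the difference was 0.723 points and did not pass (exact permutation p = 0.0573, adjusted p = 0.143); without EGME50 replicate 11 it passed, at 0.902 points. The fall from EGME60 to EGME75 no longer passed with chip as a fixed block (-0.639 points, adjusted permutation p = 0.539) or with identical rows collapsed, where shares are larger (-1.98 points, adjusted exact permutation p = 0.0585), and sat just past the threshold without EGME60 replicate 22 or 38 or EGME75 replicate 7 or 16 (adjusted exact permutation p = 0.05005 to 0.0531).

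**Figure D2:**
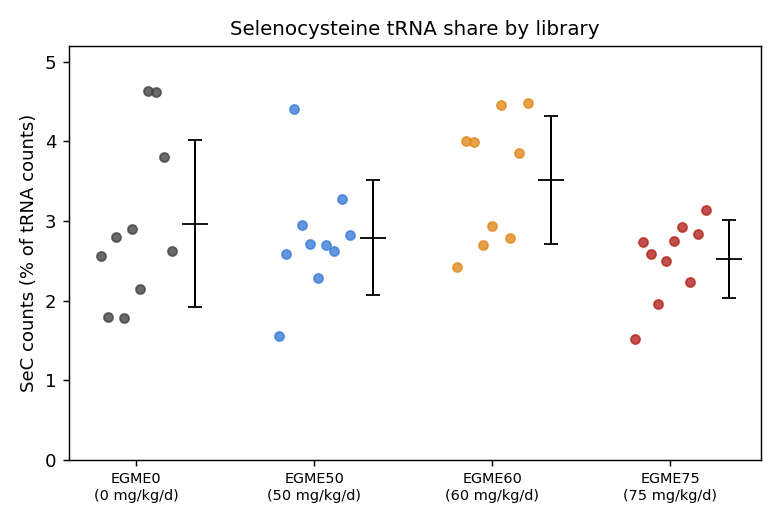
Share of tRNA counts held by the SeC gene (vertical axis, percent) in each library (points) by dose group, with the group mean and SD beside the points. The 4 groups overlap, with means of 2.97%, 2.79%, 3.52% and 2.52% from EGME0 to EGME75.

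Libraries of different dose groups shared chips, so the share could also be compared within a chip. Whether chips differed in SeC share beyond their dose groups was not tested. The mean share of a chip ran from 2.24% on chip 8 to 4.16% on chip 1, and chip 1 carried 1 control and 2 EGME60 libraries, all between 3.85% and 4.62%. Of the 5 chips that held both EGME60 and control libraries, EGME60 was lower on 4 and higher on chip 6 (3.99% against 2.14%). The mean within-chip difference over these chips was -0.192 points, while the fit to all libraries with chip as a block gave 0.353 points (adjusted permutation p = 0.539), the sign of the pooled difference. Of the 6 chips with EGME75 and control libraries, EGME75 was higher on 3 and lower on 3, with a mean difference of -0.00546 points, and the blocked fit gave -0.286 points (adjusted permutation p = 0.539). The 6 chips with EGME50 and control libraries were also divided 3 and 3.

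EGME75 stood below EGME60 on 3 of the 4 chips that carried both, by 2.23, 2.03 and 1.34 points on chips 3, 6 and 4. On chip 12 it was 0.411 points higher. The within-chip mean was -1.30 points, beside a pooled -0.998, but only these 4 chips contribute to it. The fit to all libraries with chip as a block gave -0.639 points (adjusted permutation p = 0.539). EGME60 libraries were above EGME50 libraries on 2 of the 3 chips that held both.

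**Figure D3:**
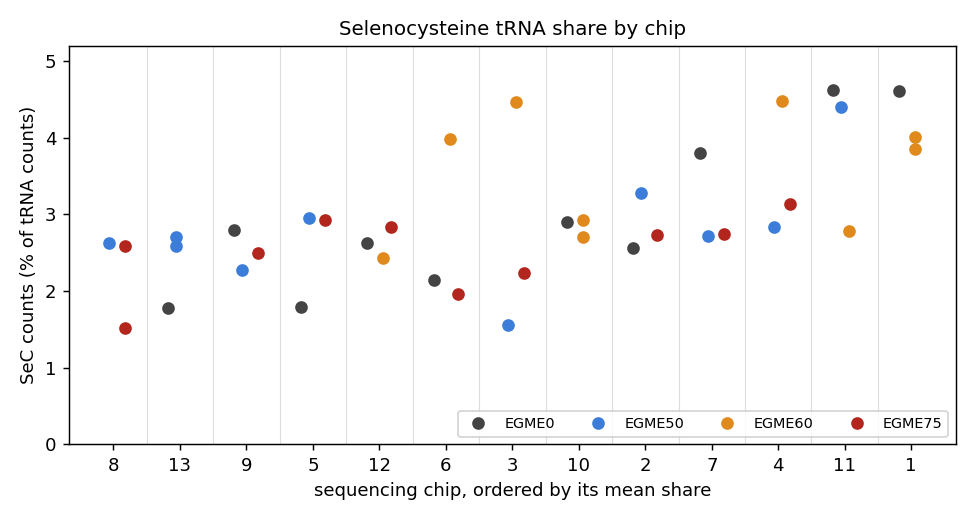
Share of tRNA counts held by the SeC gene (vertical axis, percent) for the 3 libraries of each sequencing chip (horizontal axis, ordered by the chip's mean share), coloured by dose group. Chips 11 and 1, on the right, hold both of the highest control libraries, and EGME75 is below EGME60 on chips 3, 4 and 6.

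The same gene was then tested as a scaled level, in CPM, the count per 1000000 tRNA counts, after trimmed mean of M-values (TMM) scaling, which is meant to lessen composition shifts caused by a few abundant tRNAs. On anticodon sums SeC had 30864 ± 11068 CPM at EGME0, from 17166 to 50322. It had 29205 ± 6896 CPM at EGME50, 35120 ± 10785 at EGME60 and 23881 ± 6326 at EGME75, where libraries ranged from 12529 to 32086. The groups overlapped on this scale too.

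In edgeR quasi-likelihood tests over 47 anticodons, with Benjamini-Hochberg adjustment and a threshold of 0.05, SeC passed against control at no dose. Its log2 fold change was -0.08 at EGME50 (SE 0.19, adjusted p = 0.966), 0.19 at EGME60 (SE 0.20, adjusted p = 0.559) and -0.37 at EGME75 (SE 0.19, adjusted p = 0.0914). Among all anticodons 0% were called at EGME50, 34% at EGME60 and 57.4% at EGME75, so at EGME75 most anticodons passed the threshold that SeC missed. SeC ranked 33 of 47 from the largest rise at EGME75 and 15 of 47 at EGME60. The EGME75 value was close to the threshold: it passed with relative log expression (RLE) factors (-0.41, edgeR adjusted p = 0.0494), with DESeq2 (-0.41, adjusted p = 0.0468), in 15 of the 20 fits that left out 1 library, and without both low-depth libraries (-0.52, edgeR adjusted p = 0.0113). It did not pass with chip as a block (-0.25, edgeR adjusted p = 0.370) or with library totals alone (-0.24, adjusted p = 0.231). Nor did it pass with limma-voom (-0.37, adjusted p = 0.1005), with no filter (-0.41, edgeR adjusted p = 0.0694) or with identical rows collapsed (-0.425, edgeR adjusted p = 0.0523). In the fits without 1 library the median of all anticodons moved between -0.09 and 0.11, and SeC lay at -0.54 to -0.31 relative to it.

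Scaled over single tRNA genes, the same counts gave a larger fall. At the gene level edgeR gave -0.14 at EGME50 (SE 0.18, adjusted p = 0.878), 0.15 at EGME60 (SE 0.19, adjusted p = 0.594) and -0.54 at EGME75 (SE 0.19, adjusted p = 0.0113). Of 338 genes tested, 0% were called at EGME50, 31.7% at EGME60 and 59.8% at EGME75. By direction, 29.9% were called lower at EGME75, as SeC was, and 29.9% higher. The EGME75 call of SeC was lost with library totals alone (-0.24), with chip as a fixed block (-0.43), with identical rows collapsed (-0.22), without both low-depth libraries (-0.41, edgeR adjusted p = 0.0667) and in 7 of 20 fits without 1 library. The smallest fall among those was -0.24 without EGME0 replicate 25, followed by -0.29 without EGME0 replicate 26. The other 5 left out EGME0 replicate 1, 18 or 34 or EGME75 replicate 8 or 24 and gave -0.38 to -0.41.

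The scaling moved all tRNA genes more than it moved SeC among them. With library totals alone the median log2 fold change of all genes at EGME75 shifted from -0.08 to 0.27. Relative to that median the SeC gene lay at -0.46 (TMM), -0.51 (library totals) and -0.47 (RLE factors). On anticodon sums the distance from the median was -0.44 under each of the 3 scalings. The direction of the calls over all genes moved as well: 50% of called genes were higher at EGME75 with TMM and 69.3% with library totals, with 59.8% and 73.1% at EGME60, 36.5% and 67.7% from EGME60 to EGME75, and 50% and 69.8% for a slope on dose. Over anticodons 16.7% of calls from EGME50 to EGME60 were higher with TMM and 37.5% with library totals, 50% and 60% from EGME60 to EGME75 (37.5% with RLE factors), and 45.8% and 59.3% for the slope.

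The step from EGME60 to EGME75 passed at both levels, which for SeC rest on the same counts of 1 row and are not independent. SeC fell by 0.56 on the log2 scale over anticodons (SE 0.20, edgeR adjusted p = 0.0282), where 29.8% of anticodons were called, and by 0.69 over genes (SE 0.19, adjusted p = 0.0113), where 28.4% were called. Both calls held in all 19 fits without 1 library of these groups, with RLE factors, with library totals, with DESeq2 and with limma-voom. Neither held with chip as a fixed block, at -0.40 (edgeR adjusted p = 0.330) and -0.53 (adjusted p = 0.261), a fit in which edgeR called 0 anticodons and 0 genes between these doses, with 9 and 53 at an unadjusted p under 0.05. From EGME50 to EGME60 the change was 0.27 over anticodons (SE 0.20, edgeR adjusted p = 0.390; 12.8% called) and 0.29 over genes (SE 0.19, adjusted p = 0.368; 0% called). A slope on dose over all groups was -0.19 per 75 mg/kg/d over anticodons (SE 0.20, edgeR adjusted p = 0.439; 51.1% called) and -0.31 over genes (SE 0.20, adjusted p = 0.165; 55% called).

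**Figure D4:**
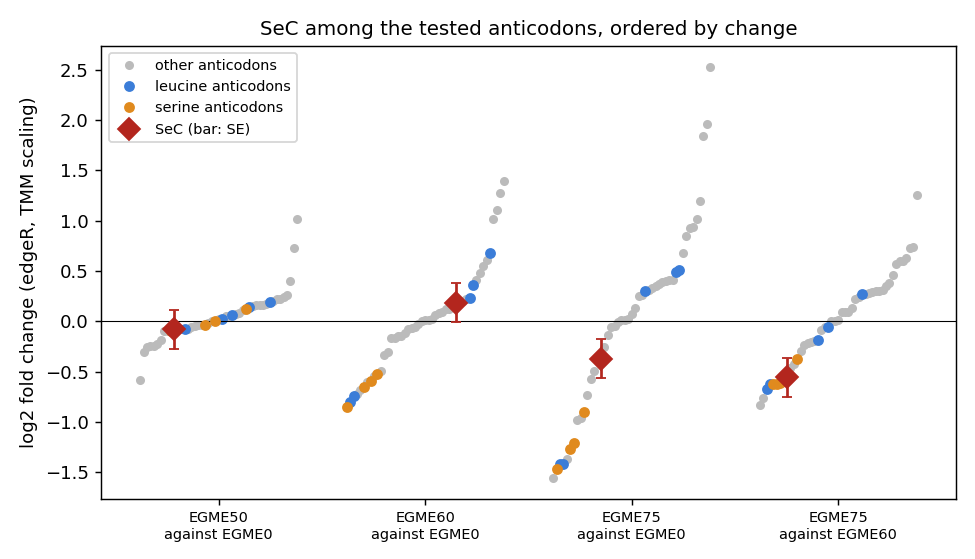
Log2 fold change (vertical axis, edgeR with TMM scaling) of the 47 tested anticodons in 4 comparisons, ordered by change within each; serine, leucine and SeC anticodons are coloured and the bar on SeC is its SE. At EGME75 against EGME0 the serine anticodons lie between -1.47 and -0.90 and SeC at -0.37.

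The next comparison set SeC beside the serine tRNAs, which are charged by the same synthetase. The 25 serine rows (5 anticodons, 23 distinct count patterns) held 29.1% ± 6.14% of tRNA counts in control sperm. Their share was 27.1% ± 6.75% after 50 mg/kg/d, 17.6% ± 6.22% after 60 and 12.1% ± 4.06% after 75. Of 22 serine genes tested, edgeR called 0 at EGME50, 17 lower and 0 higher at EGME60, and 21 lower and 0 higher at EGME75, with a median log2 fold change of -1.50 at EGME75 against -0.08 over all genes. Over all genes 12.7% were called lower and 18.9% higher at EGME60, and 29.9% in each direction at EGME75. No serine gene was called higher at EGME75 with RLE factors or library totals either, with 20 and 19 called lower. The EGME60 count fell to 0 with chip as a fixed block and to 0 with identical rows collapsed, to 1 without EGME60 replicate 22, to 10 without EGME60 replicate 14 and to 11 without EGME0 replicate 1. Over anticodons, where 27.7% were called lower and 29.8% higher at EGME75, SerGCT, the most abundant serine anticodon, fell by 1.47 at EGME75 (edgeR adjusted p = 2.07e-06), SerAGA by 1.27, SerTGA by 1.20 and SerCGA by 0.90 (adjusted p = 2.36e-07, 2.62e-07 and 1.4e-05). SerACT, a single gene with a mean of 2.64 counts, was not tested. The largest genes of these anticodons were trna10567-SerGCT of chromosome 1 (log2 fold change -1.64), trna1642-SerAGA and trna1648-SerTGA of chromosome 17 (-1.38 and -1.25) and trna9814-SerCGA of chromosome 7 (-1.35).

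SeC therefore rose relative to serine tRNA at the 2 higher doses. Control libraries held 4.94 to 21.3 SeC counts per 100 serine tRNA counts, with a median of 8.93, and EGME50 libraries 3.91 to 22.4, with a median of 9.39. EGME60 libraries held 11.1 to 54.4 (median 19.02) and EGME75 libraries 10.6 to 42.3 (median 21.1). The mean log2 ratio was higher than in control by 1.08 at EGME60 (a 2.11-fold higher ratio, exact permutation p = 0.0103, adjusted p = 0.0233), with the control median exceeded in 9 of 9 males. At EGME75 it was higher by 1.16 (2.23-fold, in 10 of 10 males, permutation p = 0.00204, adjusted p = 0.0122). At EGME50 it differed by 0.06 (interval -0.64 to 0.77, permutation p = 0.849).

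That rise was shared by most tRNAs. Measured in the same way, 67.4% of the 43 tested anticodons that do not carry serine, SeC among them, had a higher ratio to serine at EGME60 at a permutation p under 0.05, and 88.4% at EGME75 (0% at EGME50). The median anticodon rose by 0.87 and 1.69 at those doses, and 32 of the 42 besides SeC had a larger difference than SeC at EGME75, against 11 at EGME60. Leaving SerGCT out of the serine sum gave 0.84 at EGME60 and 0.94 at EGME75, both still past the threshold. With chip as a fixed block the ratio was higher by 0.94 and 1.04, with an adjusted permutation p of 0.0525 at both doses.

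Leucine tRNAs, the other tRNAs with a long variable arm, did not move as a block. The 29 leucine rows (5 anticodons, 16 distinct patterns) held 5.96% ± 0.980% of tRNA counts at EGME0 and 6.14%, 7.98% and 7.55% at EGME50, EGME60 and EGME75. Of 29 genes tested, 0 were called at EGME50, 4 at EGME60 (all lower) and 9 at EGME75 (1 higher, 8 lower), where 31.7% and 59.8% of all genes were called. LeuTAA fell by 1.42 and LeuCAA by 1.41 at EGME75 (edgeR adjusted p = 1.6e-06 and 4.2e-06), LeuCAG rose by 0.51 (adjusted p = 0.0326), and LeuAAG (0.49) and LeuTAG (0.30) did not pass. No leucine anticodon was called higher with chip as a block, with no filter, with identical rows collapsed, without both low-depth libraries or in 18 of 20 fits without 1 library, the exceptions being EGME0 replicate 10 and EGME75 replicate 40, and 3 were with library totals. With library totals alone the leucine calls at EGME75 turned to 19 higher and 7 lower, and 10 were made at EGME60. The count at EGME75 rose to 15 to 21 without EGME0 replicate 1, 18, 25, 26 or 34 or EGME75 replicate 8 or 24. At EGME60 it was 1 without EGME60 replicate 22 and 7 to 10 without EGME0 replicate 17, 25 or 34 or EGME60 replicate 5, 14 or 30.

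Against leucine tRNA, SeC was lower at EGME75. Libraries held 32.9 to 66.5 SeC counts per 100 leucine tRNA counts at EGME0 (median 48.4), 27.4 to 64.5 at EGME50 (median 47.7), 27.4 to 70.0 at EGME60 (median 46.6) and 14.7 to 48.5 at EGME75 (median 35.9). The ranges overlapped in all 4 groups. The log2 ratio at EGME75 was -0.51 relative to control (0.702-fold, permutation p = 0.0116, adjusted p = 0.0233) and 9 of 10 males were under the median of the controls, at a dose where 31% of the 42 tested anticodons that do not carry leucine, SeC among them, had a lower ratio to leucine (0% at EGME50 and 16.7% at EGME60). At EGME50 and EGME60 it differed by -0.09 (interval -0.42 to 0.24, permutation p = 0.562) and -0.05 (interval -0.41 to 0.31, exact permutation p = 0.773). The EGME75 call was lost with chip as a fixed block (-0.33, adjusted permutation p = 0.105), with identical rows collapsed (-0.30, adjusted permutation p = 0.296) and without both low-depth libraries (-0.50, adjusted exact permutation p = 0.0522). It held in each of the 20 tests without 1 library.

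**Figure D5:**
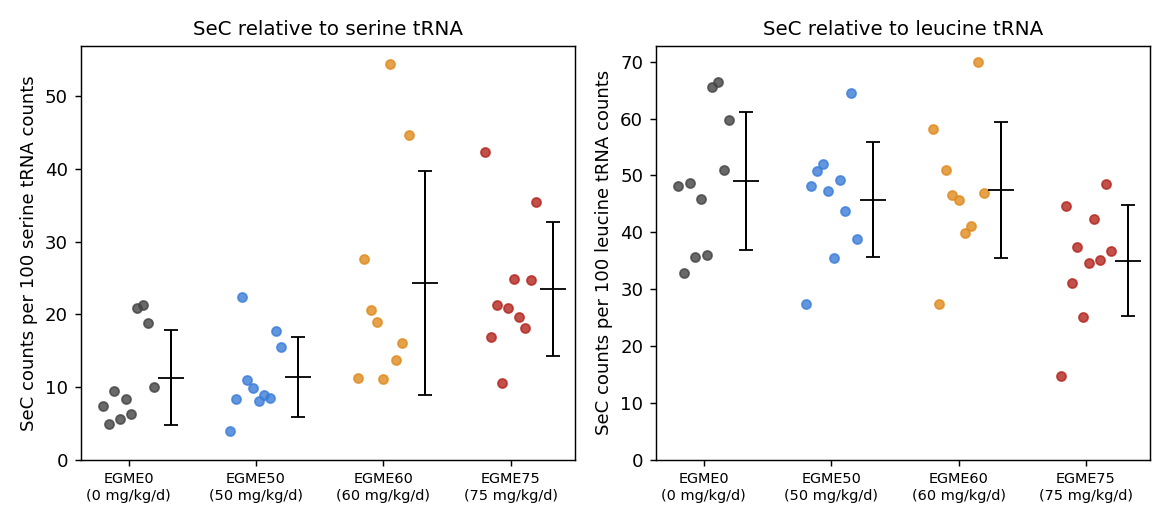
SeC counts per 100 serine tRNA counts (left, vertical axis) and per 100 leucine tRNA counts (right) in each library (points) by dose group, with the group mean and SD beside the points. All EGME75 libraries lie above the control median of 8.93 on the left, and 9 of 10 lie below the control median of 48.4 on the right.

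The spread of SeC between libraries was described for each group, and whether it differed between groups was not tested. For spread and profiles, CPM was taken from library totals without TMM scaling, with 2 counts added to each anticodon. The SD of SeC log2 CPM was 0.50 at EGME0, where 13 of 49 anticodons had a larger SD and the median was 0.40. It was 0.38 at EGME50, 0.34 at EGME60 and 0.32 at EGME75, where 29, 41 and 42 anticodons had a larger SD. Over all 39 libraries, where changes with dose add to the spread, it was 0.41 against a median of 0.57. The anticodon with the most similar profile was GluTTC, with a root mean square difference of 0.29 on the log2 CPM scale after centring each profile on its mean over the 39 libraries. AsnGTT (0.41) and LeuTAG (0.44) came next, and the median over the other anticodons was 0.68. A profile without any variation would lie at about 0.41, the SD of SeC itself. The distances of AsnGTT and LeuTAG therefore do not show that these anticodons followed SeC. GluTTC changed by 0.41 at EGME60 and -0.05 at EGME75 and AsnGTT by -0.15 and -0.74 (log2, edgeR), of which only AsnGTT at EGME75 passed (adjusted p = 0.00158).

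A separate entry named tRNA-SeC in the RNAcentral table gave a second, far smaller readout. Its counts ran from 3 to 677 per library, where the genomic tRNA row held 3693 to 502562. How reads were divided between the tables was not stated. As CPM of that table the entry ranged from 15.8 to 107 at EGME0 (median 42.2), 8.76 to 67.1 at EGME50 (median 28.4), 11.5 to 183 at EGME60 (median 29.5) and 12.4 to 34.8 at EGME75 (median 25.9). In an edgeR fit of 2757 RNAcentral entries it did not pass at EGME50 (-0.39, adjusted p = 0.9997; 1.52% called), EGME60 (1.68, adjusted p = 0.0600; 20.9% called) or EGME75 (0.01, adjusted p = 0.992; 37.8% called). TMM factors spanned 0.212 to 2.47 in this fit, against 0.749 to 1.30 over anticodons. The EGME60 value was 0.00349 without replicate 6, which held the 677 counts, and with that library kept it was -0.13 with library totals, 0.41 with limma-voom and 0.96 with RLE factors. Of the 19 fits without 1 library, 9 passed at EGME60 (lowest edgeR adjusted p = 0.0159), all with replicate 6 kept. The EGME75 value was -0.86 with RLE factors and with DESeq2 and -0.99 with library totals. From EGME50 to EGME60, where 15.4% of entries were called, it passed at 2.06 (edgeR adjusted p = 0.0216), but not without that library (0.385, adjusted p = 0.860) or without EGME50 replicate 3, 12 or 20 (1.76 to 1.84). That call was also lost with RLE factors (1.65, adjusted p = 0.0648), library totals (0.52), chip as a block (1.21) and limma-voom (1.05). With DESeq2 it held (1.65, adjusted p = 0.0368).

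The RefSeq annotation of another assembly, GRCr8, lists 766 tRNA genes, of which 1 has a UCA anticodon. That gene, Trnastop-uca, also lies on chromosome 1, between Rtn2 and Fosb as the nearest coding genes. It shares chromosome and anticodon with trna1937-SeC(e)TCA, and whether both are the same locus was not tested.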

How the data were processed

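The authors deposited 4 tables of raw counts of sense-strand reads (genomic tRNA genes, mature miRNAs, Ensembl noncoding transcripts and RNAcentral entries). All values were whole numbers, and 0 columns were unmatched to a sample. Per the labels' protocols, 10 ng of mirVana-extracted, DNase-treated RNA entered the Ion total RNA-seq kit. The submitters' processing notes name FastQC, Bowtie and DESeq2. Versions, the program that counted reads and its handling of reads with several matches were not given in the sources used here.

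The tRNA rows were summed into 49 anticodons, leaving out 2 rows without a known one. Counts were tested with edgeR 4.0.16 (R 4.3.3, limma 3.58.1): TMM, filterByExpr, robust quasi-likelihood fits over all 39 libraries, Benjamini-Hochberg adjustment over the features of a table for each comparison. The filter kept 338 genes and 47 anticodons. SEs are the fold change over the root of its F statistic. Shares and log2 ratios (pseudocount 0.5 counts) were compared by two-sided permutation tests (100000 resamples, exact where a group had 9 males), adjusted over 5 share and 6 ratio tests (numpy 2.4.6, scipy 1.17.1, pandas 2.3.3; plots by matplotlib 3.10.9). Intervals of differences are 95% and use the pooled SD of both groups. With chip as a block, dose labels were permuted within chips 10000 times. Alternatives were RLE factors, library totals alone, no filter, DESeq2 1.42.0, limma-voom, chip as a block, identical rows collapsed, other denominators and pseudocounts, and leaving out each library. The tests were tested on simulated data.

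The gene, the serine and leucine lists, the miRNA lists and the tests were chosen with earlier results of these data known. Named were all SeC rows, the serine and leucine anticodons and their largest genes, the 3 anticodons nearest in profile, and the 2 next to SeC in share. The largest leucine genes were trna12023-LeuAAG, trna11369-LeuCAA, trna214-LeuCAG, trna16829-LeuTAA and trna2467-LeuTAG, at log2 changes of 0.32, -1.65, 0.31, -1.69 and 0.20 at EGME75. The RNAcentral fit and the tests without both low-depth libraries were added once values had been seen.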

Additional observations from a re-analysis of the deposited data

Results flagged for a closer look

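The RNAcentral entry tRNA-SeC stood at 183.5 CPM in EGME60 replicate 6, while the other 8 EGME60 libraries lay between 11.5 and 38.7 CPM. The gap to the nearest library was 0.842 of the group's whole range, above Dixon's 95% critical value of 0.493 for 9 samples. In the genomic tRNA table the same library's SeC share was 4.01% of tRNA counts, within the range of its group. Of 20 groups of values examined this way, 1 was set apart, and chance alone sets apart about 1 group in 20.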

How the results depend on the processing

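No paired analysis by replicate number was made, since no 2 groups share a number and each names 1 male. The chips were the one block that could be fitted. Counting error was small for the SeC gene, whose binomial intervals were narrow in every library, whereas the RNAcentral entry had as few as 3 counts. Leaving out both low-depth libraries still moved the anticodon level, gene level and leucine ratio at EGME75 across the threshold. Whether depth itself entered the SeC values was not tested. Over the alternatives other than leaving out 1 library, the SeC level kept its direction and its side of the threshold in 43 of 48 comparisons on anticodon sums and 42 of 48 on genes, the share in 26 of 30, and the ratios to serine and leucine in 14 of 18 and 10 of 15. Most of these comparisons did not pass in the main test, and staying so counted as kept. Calls that had passed were lost in 1 anticodon, 5 gene, 2 share, 2 serine ratio and 3 leucine ratio comparisons. The cause was not tested for the comparisons that changed.

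With chip as a fixed block, the anticodon level was 0.0140 at EGME50 and -0.40 from EGME60 to EGME75, the gene level -0.43 at EGME75 and -0.53 from EGME60 to EGME75, and the share -0.639 points from EGME60 to EGME75. The ratio to serine was then -0.0790, 0.94 and 1.04 at EGME50, EGME60 and EGME75, and that to leucine 0.0722 and -0.33 at EGME50 and EGME75. With identical rows collapsed, the gene level was 0.00941 at EGME50 and -0.22 at EGME75, the share -1.98 points from EGME60 to EGME75 (no longer past the threshold, adjusted exact permutation p = 0.0585), and the leucine ratio 0.10 at EGME60 and -0.30 at EGME75. At EGME75 the anticodon level was -0.41 with RLE factors and with DESeq2, and the gene level -0.24 with library totals alone. Without both low-depth libraries they were -0.52 and -0.41, and the leucine ratio -0.50. The EGME75 share differed by -0.420 points of the summed 4 tables and by -1.65 points without GlyGCC and SerGCT in the denominator, both past the threshold. The serine ratio at EGME50 was -0.0334 without SerGCT.

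Serine genes called at EGME60 went from 17 to 0 with chip as a block and with identical rows collapsed. Leucine genes called at EGME60 went from 4 to 10 (library totals), 0 (chip), 7 (DESeq2) and 2 (collapsed), and at EGME75 from 9 to 26 (library totals) and 19 (without both low-depth libraries). Over all genes, where 338 rows gave 107, 202, 96 and 186 calls at EGME60, at EGME75, from EGME60 to EGME75 and for the slope, the 190 patterns left after collapsing identical rows gave 41, 123, 61 and 116. Chip as a block gave 54 genes at EGME60 and 0 from EGME60 to EGME75. Its anticodon counts were 4 at EGME60, 15 for the slope, 0 from EGME50 to EGME60 and 0 from EGME60 to EGME75, against 16, 24, 6 and 14 without the block (9 to 15 at an unadjusted p under 0.05 where a step or EGME60 was compared). No filter gave 0 from EGME50 to EGME60 as well, with 13 at an unadjusted p under 0.05. Library totals gave 62 genes from EGME60 to EGME75, and DESeq2 called 8 genes at EGME50 and 34 from EGME50 to EGME60, where edgeR called 0 (25 and 87 at unadjusted p under 0.05).

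The RNAcentral entry was -0.13 at EGME60 with library totals, and -0.86, -0.99 and -0.86 at EGME75 with RLE factors, library totals and DESeq2. Its EGME60 against EGME50 difference of 2.06 was 1.65, 0.52, 1.21 and 1.05 with RLE factors, library totals, chip as a block and limma-voom, none past the threshold. With DESeq2 it was 1.65 and passed.

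Leaving out 1 library at a time gave these lowest and highest values. The anticodon level was -0.19 to 0.0185, 0.03 to 0.27 and -0.57 to -0.33 at EGME50, EGME60 and EGME75, 0.13 to 0.33 and -0.74 to -0.48 for the steps to EGME60 and to EGME75, and -0.35 to -0.13 for the slope. The gene level was -0.23 to 0.0875, 0.08 to 0.38, -0.62 to -0.24, 0.20 to 0.37, -0.77 to -0.53 and -0.38 to -0.03 in the same order. The share was -0.352 to 0.0117, 0.418 to 0.734 and -0.580 to -0.264 points at the 3 doses, and 0.585 to 0.902 and -1.13 to -0.877 for the steps. The serine ratio was -0.0605 to 0.22, 0.91 to 1.20 and 1.05 to 1.28, and the leucine ratio -0.15 to -0.02, -0.12 to 0.0441 and -0.57 to -0.38. Calls over all genes were 0 to 8, 59 to 115, 192 to 228, 0 to 49 and 61 to 124 for the 3 doses and the 2 steps. Serine genes called were 0, 1 to 19 and 20 to 21, and leucine genes 0, 1 to 10 and 8 to 21. The RNAcentral entry was 0.00349 to 2.19 at EGME60, -0.13 to 0.26 at EGME75 and 0.385 to 2.81 from EGME50 to EGME60.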
